A study of Mus musculus with 6 samples.

Results

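Early postnatal astroglial sub-cluster 11 held 307 cells, all from the postnatal day 3 (P3) libraries, out of 8874 P3 astroglial cells, 9992 astroglial cells of all libraries and 14373 annotated cells in the series. Its members were the cells that carried the number 11 in the authors' second clustering, in which the *Sox9*+ astroglial cells had been taken out of the whole dataset and clustered again. The series comprised 6 droplet-based single-cell RNA-Seq libraries of the striatum of wild-type male C57BL/6 mice, with 3 replicates at P3 and 3 replicates at 3 months (3m). All cells had been enriched magnetically for ACSA2, which astrocytes carry on their surface, and each preparation pooled the striata of several animals, dissected without the subventricular zone. The members were described against all other P3 astroglial cells of the same library. Because the sub-cluster had been drawn from the expression of these same cells, the differences below are descriptions, given with the spread over 3 libraries and with no test.

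In the first days after birth astrocytes of the forebrain are still few, and many arise by local division of other astrocytes. As they mature they take up glutamate and GABA from the extracellular space, couple through gap junctions, cover blood vessels with endfeet that carry the water channel Aqp4, and secrete lipoproteins and matrix proteins. Astrocytes also differ between brain regions and between grey matter, white matter and the brain surface, and part of this difference is carried by transcription factors that pattern the embryonic brain. They are the main source of angiotensinogen in the brain.

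Sub-cluster 11 was present in each P3 library, with 66, 128 and 113 cells in replicates 1, 2 and 3. These made up 3.32% (95% Wilson interval 2.62 to 4.21%), 4.13% (3.48 to 4.88%) and 2.99% (2.49 to 3.58%) of the astroglial cells, a mean of 3.48 ± 0.585% (SD, n = 3). The intervals cover counting error only. Other sub-clusters were tied to single libraries, and these stand among the cells compared with. Sub-cluster 1 had 1156 of its 1211 cells in replicate 1, and sub-clusters 4 and 12 had 719 and 273 P3 cells in replicate 3, with at most 12 and 9 in any other. Sub-cluster 9 had 9, 133 and 278 cells in the 3 libraries, and sub-cluster 0 had 115, 976 and 739. Of the annotated cells, 56 carried one of 28 barcodes that occurred in more than 1 library, and none of them was a member. The P3 libraries held 32017013, 37603430 and 35233000 UMIs (unique molecular identifiers, 1 for each transcript molecule captured) in their annotated cells, and the members together 2343865.

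**Figure D1:**
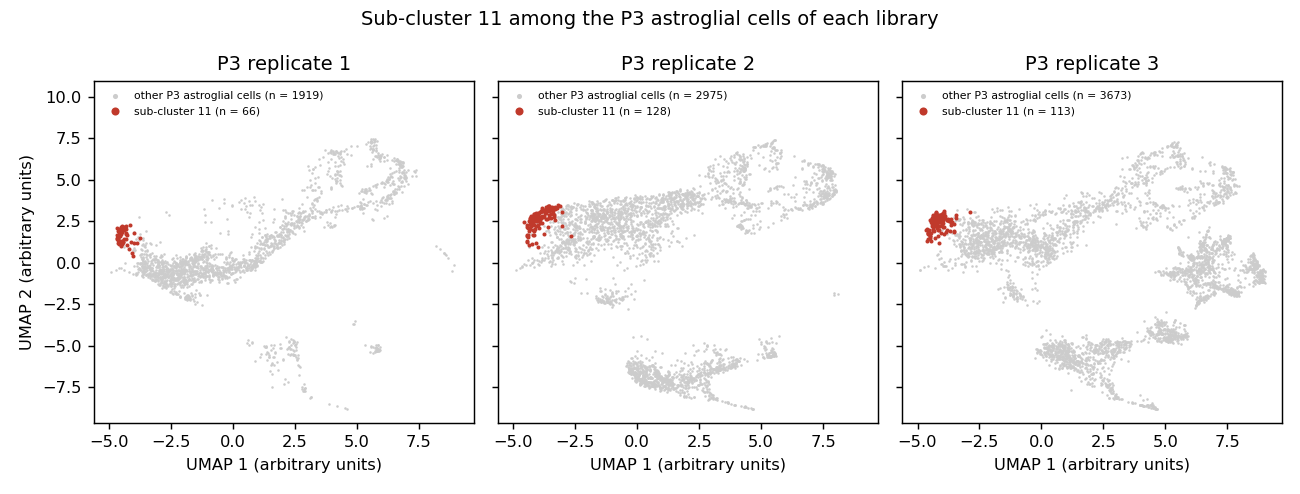
The authors' UMAP of the re-clustered astroglial cells, 1 panel per P3 library, with both axes in arbitrary units. Sub-cluster 11 (red, 66, 128 and 113 cells) lies at the left end of the main body of cells in all 3 panels.

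The members were astroglial by their markers. *Sox9*, the transcription factor that defined the astroglial cells, stood at 490, 548 and 676 CPM (UMIs of the gene per 1000000 UMIs of the summed cells) in the members and at 530, 503 and 900 CPM in the other astroglial cells, so the groups overlapped. After each cell had been thinned to 2000 UMIs, a *Sox9* UMI was found in 58.2% of 297 members and in 67.3% of 7464 other cells, against 16.1% of 757 endothelial cells and 2.52% of 596 pericytes of the same libraries. The endothelial cells pooled clusters with unlike *Sox9*. Its pooled level was 44.2 CPM in the authors' cluster END_7, 255 CPM in END_13 and 909 CPM in END_12, the last above the members. The endothelial share is therefore not that of cells without the transcript. Thinning left out 10 members and 1103 other cells with fewer UMIs. *Slc1a3*, *Aldh1l1*, *Aldoc* and *Slc1a2* were within 1.5-fold of the other cells, with mean log2 ratios of 0.39, 0.10, 0.16 and 0.05. *Gfap*, *Aqp4* and *Gja1* were at least 2-fold higher in all 3 libraries. Markers of other cell types were at or near 0. The 3 microglial genes and *Mog*, *Opalin*, *Sox10*, *Pdgfra*, *Pecam1*, *Des*, *Dcx*, *Dcn* and *Lum* had no UMI in any member, and the summed endothelial markers stood at 1.01 to 1.59 CPM in the members and at 1.49 to 10.8 CPM in the others.

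Median UMIs per cell were 8825, 6287 and 6181 in the members, 9711, 8090 and 5445 in the other cells, and 9230, 8833 and 7622 in sub-clusters 0, 1, 2 and 9. The members were thus shallower than those 4 sub-clusters in each library, with a mean difference of -1464 ± 1071 UMIs, and shallower than all other cells in 2 of 3 libraries. At 2000 UMIs a median of 1102, 1088 and 1112 genes was detected in the members and of 1137, 1103 and 1155 in the others. The composition of the RNA differed in each library. The median mitochondrial share was 3.85%, 2.95% and 2.68% in the members against 2.44%, 1.71% and 1.24% in the others. The long nuclear RNA *Malat1*, chosen here after its values were seen, took 91355, 56589 and 81746 CPM in the members and 44204, 26312 and 42839 CPM in the others. UMIs of 86 ribosomal protein genes made up 5.74%, 7.52% and 5.66% of all UMIs in the members against 12.1%, 14.9% and 11.4%, and 10.3%, 13.9% and 10.2% in sub-clusters 0, 1, 2 and 9. Mitochondrial and *Malat1* shares were thus higher and ribosomal protein shares lower in the members of every library. Their part in the gene differences below was not tested.

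Genes were tested if the higher of the group means reached 10 CPM. Of 8870 such genes, 242 were at least 2-fold higher in the members in all 3 libraries, or 2.73% of the genes tested, and 438 were at least 2-fold lower, or 4.94%. Log2 ratios were taken within each library after adding 1 CPM, which understates the difference of genes with low values. Both counts depended on the cells compared with. Against sub-clusters 0, 1, 2 and 9 alone, which hold no cycling sub-cluster, 157 of 8556 genes were higher (1.83%) and 117 lower (1.37%).

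*Agt*, which encodes angiotensinogen, the precursor of the angiotensin peptides, had the largest ratio of all genes tested. Its level was 1105, 884 and 798 CPM in the members of replicates 1, 2 and 3, and 34.8, 29.4 and 24.2 CPM in the other astroglial cells. The groups did not overlap, which was also so for 3277 of all 8870 genes tested. The mean log2 ratio of *Agt* was 4.93 ± 0.06 (SD, n = 3), or 30.6-fold. Among the 13 P3 sub-clusters with at least 25 cells in a library, the next levels were those of sub-cluster 0, at 62.2 ± 10.2 CPM (n = 3), and sub-cluster 9, at 57.9 and 52.0 CPM in the 2 libraries that had enough of its cells. Sub-clusters 10 and 15 had none in any of these libraries. At 2000 UMIs per cell an *Agt* UMI was present in 87.7%, 76.8% and 71.0% of the members, against 6.52%, 4.83% and 3.73% of the other cells. Without thinning, the shares over all 3 libraries were 96.1% and 12.3%, at median depths of 6851 and 7323 UMIs. Endothelial cells and pericytes, which should lack the transcript, had it in 1.59% and 0.671% of cells after thinning. The endothelial clusters were unlike here too, with pooled *Agt* at 0.376 CPM in END_7, 29.2 CPM in END_13 and 38.4 CPM in END_12.

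*Agt* varied among the members and was not confined to them. Of the 297 thinned members, 68 had no *Agt* UMI, 78 had 1 and 151 had 2 or more, up to 12. Among 7464 other astroglial cells 68 had 2 or more, and 37 of these lay in sub-cluster 0. The authors' first clustering of all cells drew nearly the same group. It put 267 of the 307 members (87.0%) in its cluster AST_P3_15, which had 305 cells, so that 87.5% of that cluster were members. The other 40 members came from cluster AST_P3_0. *Agt* stood at 984 CPM in the pooled members from AST_P3_15, at 519 CPM in those from AST_P3_0, and at 384 CPM in the 38 cells of AST_P3_15 that had been placed in other sub-clusters. Those 38 cells also had the highest pooled *Gfap* of the 3 groups, at 971 CPM against 274 and 104 CPM. Only 34 of the 307 members carried a deposited pseudotime score, between 160 and 170 on a scale that reached 247, and 273 carried none.

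The promoter of *Agt*, at chr8:124569657-124569956 on the minus strand of GRCm38.p6, is shown because *Agt* led the sub-cluster. It runs from 250 bases before the RefSeq transcription start to 50 bases after it. Those of *Gfap*, at chr11:102897151-102897450 (minus strand), and *Lhx2*, at chr2:38339031-38339330 (plus strand), stand beside it as an intermediate filament gene that was higher in the members and a transcription factor gene that was lower. Capitals mark matches, on either strand, to a STAT motif (TTC and GAA separated by 3 bases) or to TATAAA.
Agt: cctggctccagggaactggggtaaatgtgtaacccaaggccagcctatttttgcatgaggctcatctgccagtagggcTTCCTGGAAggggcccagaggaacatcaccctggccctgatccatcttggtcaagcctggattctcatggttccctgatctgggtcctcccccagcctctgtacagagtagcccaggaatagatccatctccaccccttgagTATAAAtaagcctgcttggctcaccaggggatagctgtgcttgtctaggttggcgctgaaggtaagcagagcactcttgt
Gfap: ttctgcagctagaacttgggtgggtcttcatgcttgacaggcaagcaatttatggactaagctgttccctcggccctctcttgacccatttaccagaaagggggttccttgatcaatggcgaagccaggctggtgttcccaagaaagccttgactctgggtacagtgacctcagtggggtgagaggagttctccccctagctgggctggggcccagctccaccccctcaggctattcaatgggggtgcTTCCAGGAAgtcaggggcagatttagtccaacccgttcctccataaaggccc
Lhx2: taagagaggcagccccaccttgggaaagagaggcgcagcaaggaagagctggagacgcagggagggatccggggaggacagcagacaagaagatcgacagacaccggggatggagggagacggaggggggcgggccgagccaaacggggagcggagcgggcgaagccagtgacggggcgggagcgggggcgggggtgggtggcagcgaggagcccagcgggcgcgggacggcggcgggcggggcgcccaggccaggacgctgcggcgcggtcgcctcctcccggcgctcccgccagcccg
*Agt* held 1 match to each motif, *Gfap* 1 to the STAT motif and *Lhx2* none. Of the 20 genes with the largest ratios, 16 had a promoter in the RefSeq table. The STAT motif occurred in 2 of these 16 (*Agt* and *Ntsr2*), or 12.5%, beside 8.47% of 27025 genes, and TATAAA in 3 of 16 (*Agt*, *Il33* and *Sulf2*), or 18.8%, beside 14.2%. A palindromic NFI motif (TTGGC and GCCAA separated by 5 bases) occurred in none of the 16 and in 0.0407% of all. A match is a description of the letters and not of a bound site.

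Several of the other leading genes encode secreted proteins. *Il33*, a cytokine that acts as an alarm signal, was at 42.8, 66.3 and 124 CPM in the members and at 5.02, 5.84 and 8.63 CPM in the other cells (log2 ratio 3.29 ± 0.42). *Sparcl1*, a secreted protein that promotes synapse formation, was at 6680, 4774 and 6615 CPM against 1692, 958 and 1220 CPM (2.24 ± 0.24). *Egfl6*, a secreted protein with EGF repeats, and *Sulf2*, which trims sulfates from heparan sulfate, had ratios of 2.57 ± 0.09 and 2.21 ± 0.20. In none of these did the members' libraries overlap with the others, a separation found in 3277 of the 8870 genes tested.

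Among receptor genes were *Ednrb*, the endothelin receptor B, at 3219, 3026 and 4198 CPM in the members against 762, 674 and 845 CPM (2.18 ± 0.12), and *Ntsr2*, a neurotensin receptor (2.23 ± 0.27). *Kctd12*, an auxiliary subunit of GABA-B receptors, had a ratio of 2.39 ± 0.05. *Hsd11b1*, the enzyme that regenerates active glucocorticoid, had one of 2.96 ± 0.31. *Igsf1*, a membrane protein of the immunoglobulin superfamily, was at 99.9, 86.4 and 96.1 CPM against 11.0, 9.22 and 12.7 CPM (3.00 ± 0.15). The actin and scaffold proteins *Kank1* and *Eps8* had ratios of 2.64 ± 0.13 and 2.53 ± 0.09, and *Pcp4*, a regulator of calmodulin, one of 3.28 ± 0.33. *Arpp21*, *Lrp1b* and *Cmbl* completed these genes, with ratios of 2.70, 2.80 and 2.23. All were at least 2-fold higher in each library.

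*Hopx*, an atypical homeodomain protein, was the leading gene with the widest spread. Its level was steady in the members, at 101, 91.4 and 106 CPM, while in the other cells it was 5.81, 12.9 and 27.7 CPM, so the log2 ratio was 2.85 ± 1.01. *Hopx* in sub-cluster 10 ranged from 38.4 to 356 CPM over the 3 libraries, on both sides of the members.

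**Figure D2:**
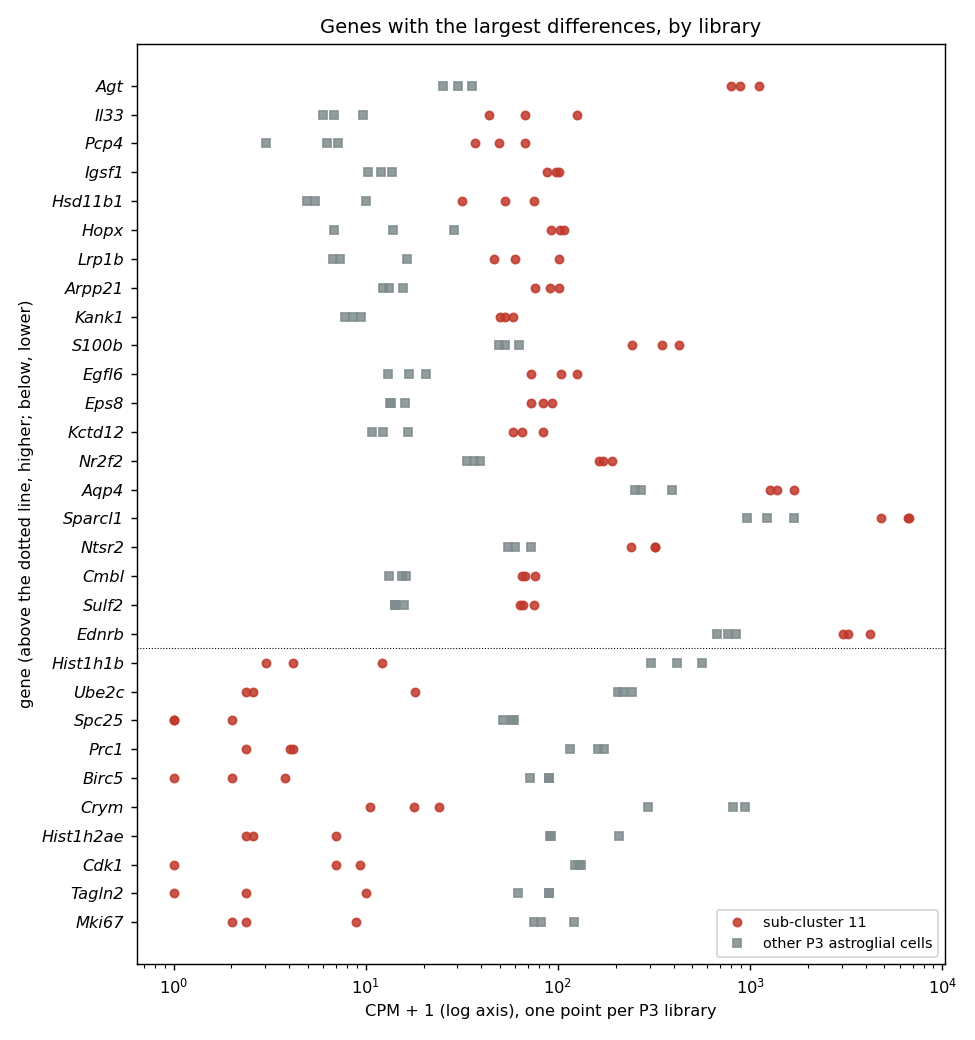
CPM plus 1 on a log axis for the 20 genes with the largest and the 10 with the smallest ratio, with 1 point per P3 library for sub-cluster 11 (red circles) and for the other P3 astroglial cells (grey squares). For all 30 genes, chosen for their ratios, the 3 red points lie apart from the 3 grey points, as they do for 3277 of the 8870 genes tested. *Agt* shows the widest gap among the higher genes.

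Genes of the astrocyte endfoot and of gap junctions leaned upwards. All 10 listed endfoot genes had a mean ratio above 0, with a median of 0.72 beside -0.07 over all genes tested, and 3 of 10 passed the 2-fold rule (background 2.73%). *Aqp4* was at 1693, 1269 and 1381 CPM in the members against 393, 251 and 270 CPM (2.26 ± 0.14). *Gja1*, which encodes the main gap junction protein of astrocytes, was at 1024, 879 and 893 CPM against 403, 329 and 425 CPM (1.28 ± 0.18). *Gjb6*, which encodes another astrocytic connexin, was much lower in level but had a ratio of 2.96 ± 0.36, at 19.0, 17.1 and 32.0 CPM against 2.30, 1.32 and 2.30 CPM. With a pseudocount of 5 CPM the ratio of *Gjb6* was 1.96. Relative to sub-clusters 0, 1, 2 and 9 alone, *Aqp4* stood at 1.74 ± 0.04, *Gja1* at 0.96 ± 0.20 and *Gjb6* at 3.01 ± 0.52. The dystrophin complex genes *Dag1*, *Dtna* and *Dmd* had ratios of 0.14 to 0.88 and did not pass the rule, nor did *Mlc1* (0.58), *Hepacam* (0.40) or the potassium channel gene *Kcnj10* (0.85).

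Of 7 transmitter uptake genes 2 were higher (background 2.73%) and none was lower. *Slc6a11*, the GABA transporter GAT-3, was at 1387, 1027 and 1311 CPM in the members against 352, 237 and 291 CPM (2.09 ± 0.10). Its ratio against sub-clusters 0, 1, 2 and 9 was 1.68 ± 0.03. Sub-cluster 1 had the next highest *Slc6a11*, at a mean of 580 CPM and up to 808 CPM in a library, beside a mean of 1242 CPM in the members. The glutamate transporters *Slc1a3* and *Slc1a2* and the enzyme *Glul* had ratios between -0.41 and 0.39, and *Glud1* was at 0.59. The glycine transporter *Slc6a9* (1.74 ± 0.13) and the amino acid transporter *Slc7a10* (1.47 ± 0.25), which were singled out after their values were seen, were also at least 2-fold higher in each library. The next highest P3 sub-clusters were closer. Mean *Slc7a10* was 682 CPM in the members and 475 CPM in sub-cluster 0, and mean *Slc6a9* was 234 CPM and, in sub-cluster 1, 133 CPM. These means lay less than 2-fold apart.

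In the lipid list, 3 of 7 tested genes were higher (background 2.73%), with a median of 0.91. *Apoe*, the main lipoprotein of the brain, was at 32446, 25860 and 26792 CPM in the members against 13514, 8938 and 8806 CPM (1.47 ± 0.18). *Clu*, a secreted chaperone of lipoproteins, was at 1756, 2878 and 4160 CPM against 451, 743 and 1223 CPM (1.89 ± 0.11), so its level differed more between libraries than its ratio did. Sub-clusters 15 and 3, with mean *Clu* of 2144 and 2124 CPM, lay within the range of the members' libraries. *Abca1*, the cholesterol exporter, had a ratio of 1.22 ± 0.12. Set against sub-clusters 0, 1, 2 and 9 alone, *Apoe* stood at 1.09 ± 0.15, *Clu* at 1.92 ± 0.18 and *Abca1* at 0.88 ± 0.16. The fatty acid binding protein genes *Fabp7* (-0.27) and *Fabp5* (0.50) did not pass. Of 9 tested matrix genes, *Sparcl1*, *Sparc* (1.43 ± 0.22) and *Ncan* (1.18 ± 0.10) were higher, beside the same background of 2.73%, *Bcan* (1.05 ± 0.21) missed the rule, and *Cspg5* (0.07) and *Vcan* (-0.11) were near 0. Of 8 S100 genes 1 was higher, beside 2.73% of all genes. *S100b* was at 241, 348 and 428 CPM in the members against 48.4, 62.0 and 52.3 CPM (2.59 ± 0.37), while *S100a4* and *S100a10* stood at -1.07 and -1.05 without passing.

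Gene lists for kinds of astrocyte were split. *Gfap*, typical of fibrous astrocytes and of those at the brain surface, was at 128, 204 and 418 CPM in the members and at 35.6, 49.8 and 122 CPM in the others. The members of replicate 1 thus had about as much as the other cells of replicate 3, but within libraries the ratio was 1.87 ± 0.13. Sub-cluster 9, at 180 and 360 CPM in replicates 2 and 3, was close to the members in *Gfap*. *Cd44* (-1.14), *Id3* (-0.03), *Tnc* (0.30) and *S100a6* (-0.21) from the same list did not pass, *Vim* was lower, and *Myoc* had no UMI. From the protoplasmic list *Slc6a11* and *Gpc5* (1.82 ± 0.28) were higher (background 2.73%), *Chrdl1* was lower (-2.12 ± 0.27, background 4.94%), and the other 5 did not pass.

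The intermediate filament genes moved apart. *Nes*, which marks neural progenitors and immature glia, was at 11.1, 10.1 and 15.3 CPM in the members against 169, 127 and 161 CPM (-3.55 ± 0.25). *Vim* was at 377, 492 and 379 CPM against 911, 1073 and 995 CPM (-1.26 ± 0.13). The members had the lowest mean *Nes* and *Vim* of the 13 P3 sub-clusters, and *Gfap* was higher as given above. Of the other 9 genes on a list of 10 immature astrocyte genes, taken from the study's text and not all that it names, *Sparc* passed in the opposite direction, and *Fabp7*, *Olig1*, *Olig2*, *Nfia*, *Nfib*, *Hes5*, *Id1* and *Id3* had ratios of -0.39 to 0.18. Of 9 genes taken from it for mature astrocytes, 4 were higher, beside 2.73% of all genes (*Gjb6*, *Apoe*, *Aqp4* and *S100b*) and none was lower. These lists were chosen by the study on these libraries and are not independent evidence of a direction.

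The transcription factors that the study followed as candidate maturation factors went different ways. *Lhx2*, a LIM homeodomain factor, was at 20.6, 24.1 and 20.9 CPM in the members and at 103, 121 and 158 CPM in the others (-2.47 ± 0.34). The members had the lowest *Lhx2* of the 13 P3 sub-clusters, and the next was sub-cluster 2 at 76.9 ± 11.7 CPM. *Dbx2*, a homeodomain factor, was at 214, 257 and 270 CPM against 101, 95.6 and 84.9 CPM (1.39 ± 0.29). *Rorb* (0.29 ± 0.18), *Rora* (0.89 ± 0.16) and *Pou3f3* (0.06 ± 0.11) did not pass. *Fezf2* had no UMI in any member. Set against a floor of 3 UMIs over the group, or 1.28 CPM, it was at least 3.19-fold lower than in the other cells, where it stood at 4.08 CPM.

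*Lhx2* was one of 4 listed telencephalic factors. *Emx2*, a homeodomain factor of the dorsal telencephalon, was at 15.9, 16.1 and 12.5 CPM in the members against 60.7, 64.4 and 72.8 CPM (-2.09 ± 0.31). *Six3*, a factor of the anterior forebrain that striatal lineages also use, was at 98.3, 89.4 and 90.6 CPM against 97.7, 98.5 and 94.6 CPM (-0.06 ± 0.07). Of the 4 factors, 2 were at least 2-fold lower (background 4.94%) and none was higher.

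Factors of other brain regions were low in level throughout. Of 10 on the list only *Otx2* reached a group mean of 10 CPM, at a ratio of 0.22. *Irx1* was at 6.34, 12.1 and 9.75 CPM in the members against 0.369, 1.32 and 0.503 CPM, and *Irx3* at 6.34, 6.03 and 9.75 CPM against 0.276, 0.439 and 0.587 CPM. An *Irx1* UMI was found in 19 of 307 members (6.19%), in 40 of 8567 other cells (0.467%) and in 2 of 1294 endothelial cells, at median depths of 6851, 7323 and 3703 UMIs. An *Irx3* UMI was found in 13 members (4.24%) and 28 other cells (0.327%), but also in 57 of the endothelial cells (4.41%). These shares are at unequal depth. Median depths in replicates 1, 2 and 3 were 25937, 20982 and 1718.5 UMIs in the endothelial cells. In the members they were 8824.5, 6286.5 and 6181 UMIs. Among cells thinned to equal depth, an *Irx3* UMI was found in 4 of 297 members (1.35%) and 2 of 757 endothelial cells (0.264%). The share of members was then the higher, on few cells in each group. *Pax3*, *Pax7* and *En2* had no UMI in the members. Among regional factors singled out after their values were seen, *Nr2f1* had a ratio of 0.57 ± 0.20 and *Nkx2-1* of 1.71 ± 0.76, neither past the rule. *Foxb1* was at 11.1, 11.1 and 16.7 CPM against 0.507, 0.641 and 0.503 CPM (3.15 ± 0.36, or 1.68 with a pseudocount of 5 CPM). *Meis2*, abundant in the striatal lineage, was at 162, 124 and 131 CPM against 330, 306 and 348 CPM (-1.24 ± 0.20), and *Dlx2* at a ratio of -1.75 ± 0.26. *Nr2f2*, a nuclear receptor among the leading genes, was at 163, 191 and 170 CPM against 32.5, 35.4 and 38.3 CPM (2.27 ± 0.14), with sub-cluster 12 close to it at 151 CPM in the 1 library that had enough of its cells.

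Cell cycle genes made up 8 of the 10 genes with the smallest ratios (*Hist1h1b*, *Ube2c*, *Spc25*, *Prc1*, *Birc5*, *Hist1h2ae*, *Cdk1* and *Mki67*, from -6.28 to -4.69). Histone counts are uncertain to the extent that near-identical copies shared reads. All 4 listed proliferation genes were at least 2-fold lower (background 4.94%), and a *Mki67* UMI was found in 6 of 307 members (1.95%) against 14.1% of the other cells. The cycling sub-clusters 6 and 8 lay among the cells compared with. Against sub-clusters 0, 1, 2 and 9 the ratio of *Mki67* was -0.78, that of *Ube2c* -0.44 and that of *Top2a* -0.09, at levels too low to be tested there. The cyclin genes *Ccnd1* and *Ccnd2*, singled out after their values were seen, kept ratios of -1.51 and -1.46 against those sub-clusters.

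*Crym*, a thyroid hormone binding protein, and *Tagln2*, an actin-binding protein, were the other 2 of these 10 genes. *Crym* was at 9.51, 23.1 and 16.7 CPM in the members and at 294, 940 and 813 CPM in the others (-5.21 ± 0.36), and it was still at -4.21 ± 0.55 against sub-clusters 0, 1, 2 and 9. It varied widely between those sub-clusters and between libraries. *Crym* ranged from 530 to 2342 CPM in sub-cluster 0 and from 5.45 to 35.4 CPM in sub-cluster 2, which overlapped the members, and its mean was 5727 CPM in sub-cluster 3. *Tagln2* had 0, 9.04 and 1.39 CPM in the members against 61.2, 88.5 and 88.6 CPM (-4.78 ± 1.45).

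Immediate early genes were lower as a group. All 9 had a ratio below 0, with a median of -1.22, and 6 were at least 2-fold lower, beside 4.94% of all genes (*Fos*, *Jun*, *Egr1*, *Atf3*, *Ier2* and *Dusp1*). *Fos* was at 797, 715 and 708 CPM in the members against 1699, 1456 and 2076 CPM (-1.22 ± 0.29), and *Egr1* at 147, 118 and 76.6 CPM against 475, 344 and 423 CPM (-1.89 ± 0.49). These genes respond within minutes to stimulation and to tissue dissociation. The libraries had been dissociated enzymatically with warm enzyme, and the part of this step was not tested. *Fos* was also among the genes whose UMIs were most dispersed over the thinned members, with a variance of 5.95 times its mean beside a median of 1.07 times over 1585 genes with at least 0.2 UMIs per member. Of the ribosomal protein genes, all 83 tested had a ratio below 0, with a median of -1.02, and 31 were at least 2-fold lower (background 4.94%). Against sub-clusters 0, 1, 2 and 9 the median was -0.86 and 8 were lower (background 1.37%).

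Signalling lists held few differences. None of 8 tested BMP and Id genes, none of 10 Notch genes and none of 3 metallothionein genes passed. *Id2* had the highest ratio of the first list (1.11 ± 0.11), and *Notch3* (0.81 ± 0.12) and *Hes1* (-1.15 ± 0.25) the highest and lowest of the second. Of 10 FGF and ERK genes *Fgfr3*, a receptor typical of astrocytes, was higher (1.35 ± 0.18, background 2.73%), and the ERK feedback gene *Dusp6* stood at -0.76 ± 0.42. The ratio of *Fgfr3* against sub-clusters 0, 1, 2 and 9 was 1.01 ± 0.08. Of 6 tested reactive and immune genes 1 was higher (background 2.73%). *Serpina3n* was at 30.1, 36.2 and 58.5 CPM in the members and at 4.82 to 5.02 CPM in the others (2.79 ± 0.51), while *Lcn2*, *C3* and *Ifit3* had no UMI in the members and *Socs3* was at -1.44 ± 0.61. Of 4 tested genes of ciliated ependymal cells 3 were lower, beside 4.94% of all genes (*Foxj1*, *Dynlrb2* and *Pifo*). *Pifo* had no UMI in the members and was at least 19.6-fold lower than in the other cells, against the same floor, and *Foxj1* stood at -2.44 ± 0.79, which against sub-clusters 0, 1, 2 and 9 was -0.93.

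**Figure D3:**
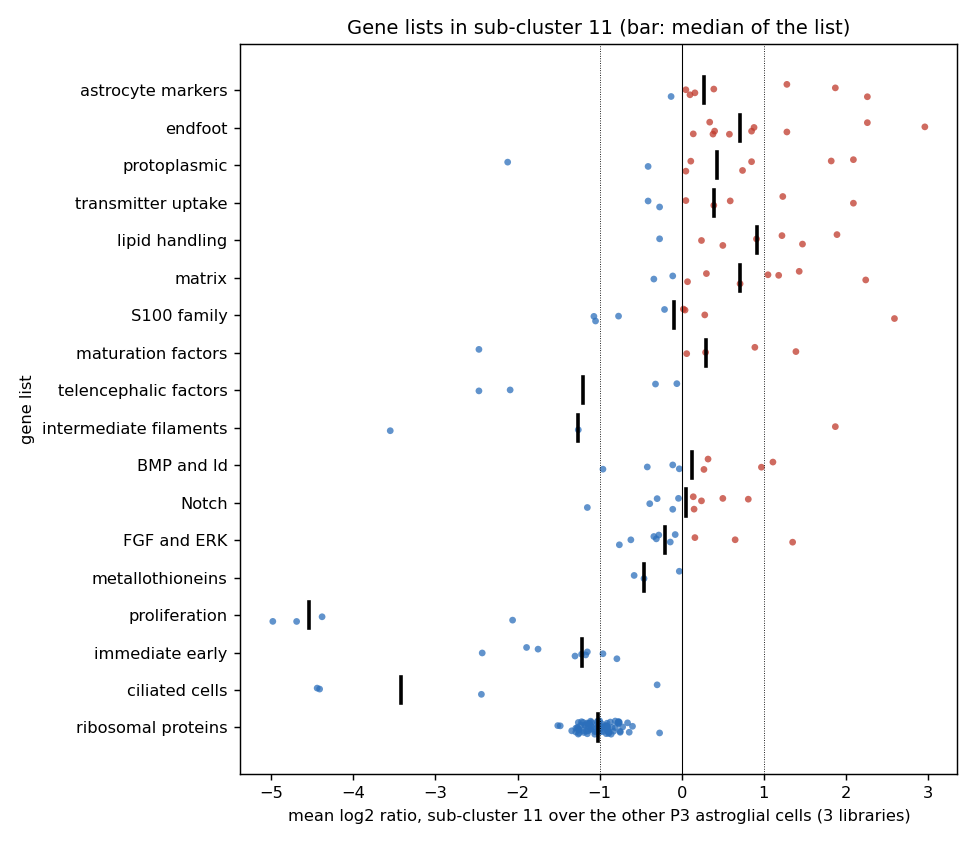
Mean log2 ratio over 3 libraries of each tested gene in 18 gene lists, sub-cluster 11 over the other P3 astroglial cells, with red points above 0, blue points below 0, a black bar at the median of the list and dotted lines at 2-fold. All 10 endfoot genes lie above 0, and all 9 immediate early genes and all 83 ribosomal protein genes lie below 0.

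Among all astroglial sub-clusters, sub-clusters 0, 1 and 9 were most like the members. Across 8870 genes the Pearson correlation of log2 pooled levels was 0.963 with sub-cluster 0, 0.954 with sub-cluster 1 and 0.951 with sub-cluster 9, and 0.873 with the next, sub-cluster 2. This is across genes, which are not independent replicates, and the pools share libraries. Against sub-cluster 0, 101 of 8517 genes were at least 2-fold higher in the members of all 3 libraries (1.19%) and 64 lower (0.751%). Against sub-cluster 1 the counts were 101 (1.13%) and 145 (1.62%) of 8966 genes, with only 29 and 26 of its cells in replicates 2 and 3. Against sub-cluster 9, which had 9 cells in replicate 1 and was compared in the other 2 libraries, they were 170 (2.01%) and 148 (1.75%) of 8472. The counts of sub-cluster 9 rest on 2 libraries and so are not on a par with the others.

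A set of 53 genes was higher and a set of 34 lower than in each of these 3 sub-clusters. The higher set held *Agt*, *Il33*, *Igsf1*, *Hopx*, *S100b*, *Aqp4*, *Ednrb*, *Ntsr2*, *Nr2f2*, *Gjb6*, *Serpina3n*, *Clu*, *Foxb1* and *Reln*. *Reln*, the secreted glycoprotein reelin, picked in view of its values, stood at 19.0, 20.1 and 16.7 CPM in the members against 1.38, 0.709 and 1.01 CPM in all other cells (3.28 ± 0.30, or 1.97 with a pseudocount of 5 CPM). The lower set held *Lhx2*, *Emx2*, *Nes* and *Chrdl1*, as well as *Epha4*, *Sp5*, *Plagl1*, *Lef1* and *Dio2*, the deiodinase that activates thyroid hormone. *Dio2* had a ratio of -2.60 ± 0.36 over all other cells. *Apoe*, *Dbx2* and *Gja1* passed against none of these 3 sub-clusters.

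**Figure D4:**
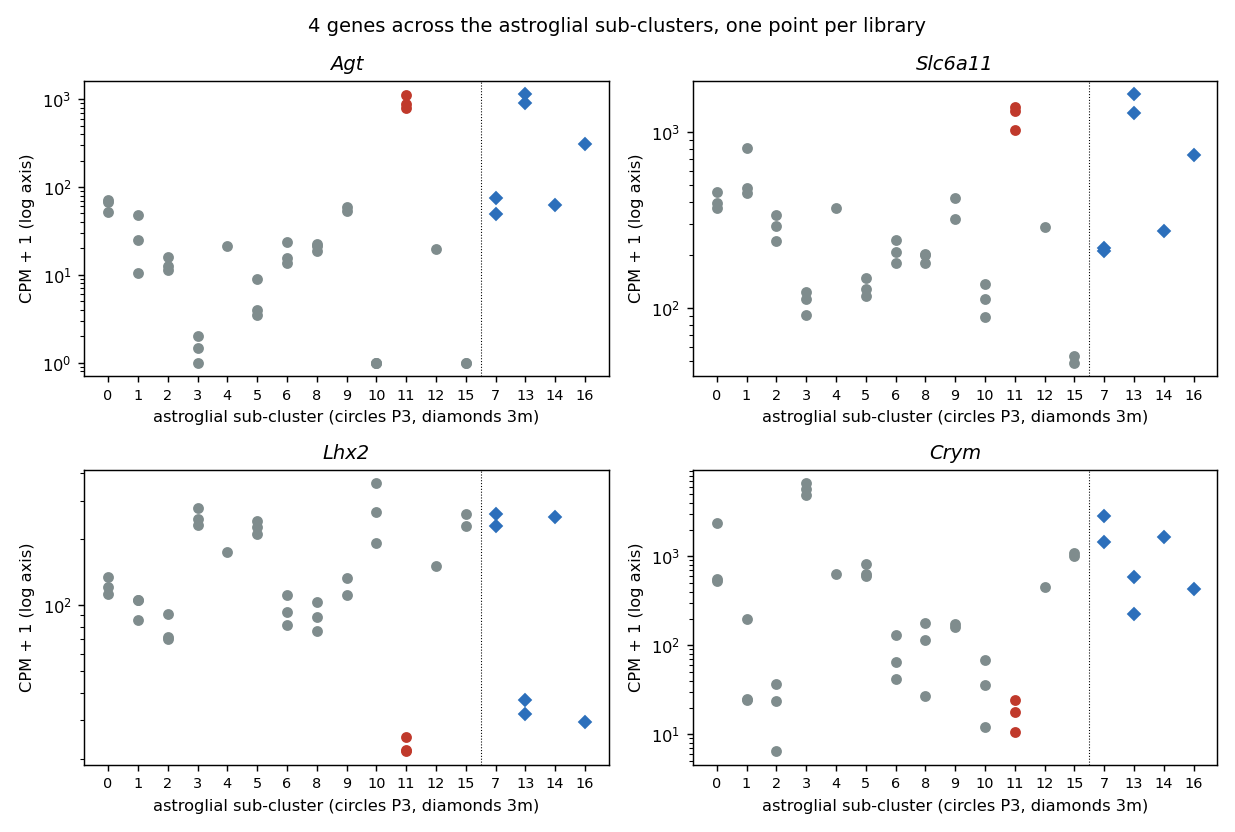
CPM plus 1 on a log axis for *Agt*, *Slc6a11*, *Lhx2* and *Crym* in each astroglial sub-cluster, with 1 point per library that had at least 25 of its cells, P3 as circles and 3m as diamonds. Sub-cluster 11 (red) has the highest *Agt* and *Slc6a11* and the lowest *Lhx2* of the P3 sub-clusters, and at 3m sub-cluster 13 stands on the same side of sub-cluster 7 in all 4 genes.

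No 3m cell belonged to sub-cluster 11. Its values were set beside those of 3m sub-cluster 13. The brain region of origin of neither group was determined here, and their relation to each other was not tested. Of its 202 cells, 168 and 31 were in 3m replicates 2 and 3, and it was set there against sub-clusters 7 and 14. This reference was sub-cluster 7 (283 and 307 cells) in all but 2 cells, since sub-cluster 14 lay almost wholly in replicate 1, which had 3 cells of sub-cluster 13 and was not used. This comparison was chosen after the values were seen. It shares no library with the P3 comparison, but all these sub-clusters came from 1 joint clustering. *Agt* was at 1133 and 902 CPM in sub-cluster 13 and at 74.6 and 47.5 CPM in sub-clusters 7 and 14. *Slc6a11* was at 1630 and 1270 CPM against 209 and 218 CPM, *Igsf1* at 122 and 82.0 CPM with 3.11 and 1.62 CPM in sub-cluster 7, and *Gfap* at 196 and 154 CPM against 20.7 and 29.0 CPM. *Lhx2* was at 30.9 and 35.9 CPM against 260 and 229 CPM, and *Crym* at 224 and 579 CPM against 2876 and 1435 CPM. Sub-cluster 16 (121 cells), at 305 CPM of *Agt* and 28.3 CPM of *Lhx2* in the 1 library with enough cells, lay between the others in *Agt* and beside sub-cluster 13 in *Lhx2*.

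Of the 242 genes higher in sub-cluster 11, 197 could be tested at 3m. Of these, 64 (32.5%) were also at least 2-fold higher in sub-cluster 13 in both libraries, beside 4.25% of all 8564 genes tested, and 3 (*Hopx*, *Aqp11* and *Clu*) were at least 2-fold lower, beside 2.62%. The 64 genes were 17.6% of the 364 higher at 3m. The median 3m log2 ratio of the 197 was 0.70, beside 0.02 over all genes. Of the 438 lower genes 165 could be tested, 20 (12.1%) were also lower at 3m and 6 (3.64%) were higher. Those 20 were 8.93% of the 224 lower at 3m and included *Lhx2*, *Crym*, *Hgf*, *Ephb1* and *Gfra1*. Of the 117 genes lower than sub-clusters 0, 1, 2 and 9, 63 could be tested, 16 (25.4%) were also lower at 3m and 1 was higher.

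Other genes past the rule at P3 were not past it at 3m. *Aqp4* (0.33), *Apoe* (-0.27), *S100b* (0.46), *Pcp4* (0.10) and *Eps8* (-0.03) had 3m ratios within 2-fold, and *Hsd11b1* was at -0.65 there. *Emx2* was at 11.8 and 41.0 CPM in sub-cluster 13 against 66.3 and 70.9 CPM. *Fos* and *Egr1* were at most 19.1 and 5.12 CPM in all of these 3m sums. The myelin genes *Mbp* and *Mog*, which mark oligodendrocytes, were also higher in sub-cluster 13 than in 7 and 14 (log2 ratio 1.58 for each), and their part in the 3m comparison was not tested.

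**Figure D5:**
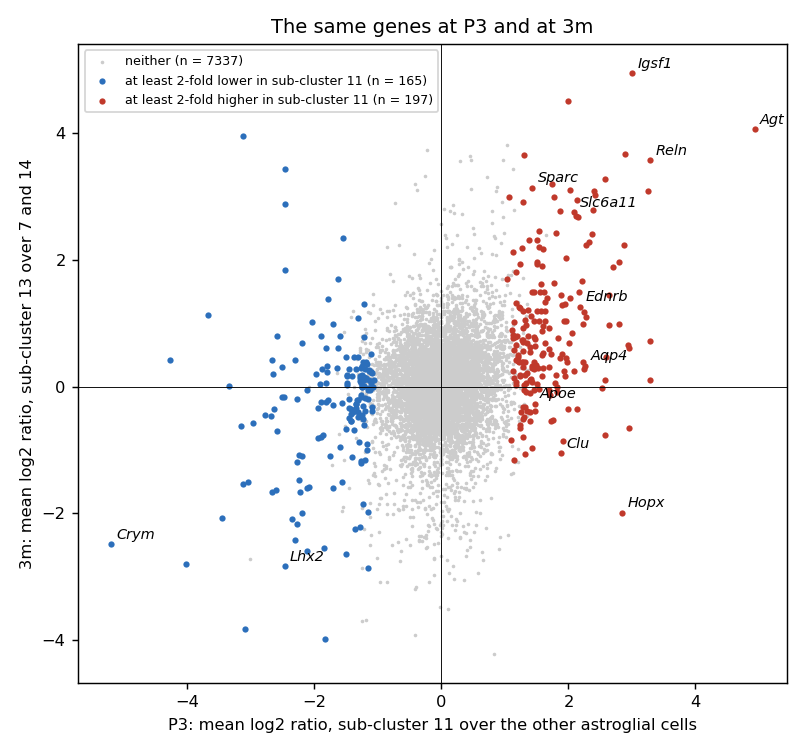
Mean log2 ratio at P3 (x axis, sub-cluster 11 over the other astroglial cells, 3 libraries) and at 3m (y axis, sub-cluster 13 over sub-clusters 7 and 14, 2 libraries), with 1 point per gene tested at both ages (165 genes lower in sub-cluster 11 in blue, the others in grey). The 197 genes higher in sub-cluster 11 (red) have a median of 0.70 on the y axis, with *Agt* and *Igsf1* at the upper right, *Hopx* below 0, and *Crym* and *Lhx2* low on both axes.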

How the data were processed

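Striatal ACSA2+ cells of 3 P3 and 3 3m libraries were analysed. The deposited table held UMI counts of 32285 genes in 16690 barcodes, which the authors had obtained with Cell Ranger (genome build mm10) and merged without normalization. The submitters' processing notes name Seurat 3.1.1. The authors' filter required more than 500 genes and a mitochondrial share below 10%, and they clustered the cells after SCTransform and clustered the astroglial cells again. Sub-cluster numbers, UMAP coordinates and the pseudotime score were taken as deposited by the authors and have no unit. Doublets were not removed.

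UMIs were summed per library over the members and over the other cells and scaled to CPM, and log2 ratios were formed within libraries with a pseudocount of 1 CPM (Python 3.11.15, numpy 2.4.6). A gene was counted as higher or lower if it differed at least 2-fold in the same direction in every library. No test was run. Alternatives included TMM factors (edgeR 4.0.16), other pseudocounts and filters, thinning and other reference cells. The code was tested on simulated data.

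The members and the gene lists were chosen with earlier results of these data known. Named genes are those of the lists, plus the 20 largest and 10 smallest ratios among genes past the 2-fold rule with at least 50 CPM in the higher group, without predicted or unnamed genes. Gene symbols are those of the count table. Promoters are from RefSeq (GRCm38.p6), the build of mm10. Sums of the members held 630870 to 995244 UMIs per library, those of the other cells 21696234 to 29621896, which limits the precision of low genes in the members. Intervals cover counting error only. Some genes of the lists are not reported here.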

Additional observations from a re-analysis of the deposited data

How the results depend on the processing

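Over 66 genes and the alternatives tried, 792 log2 ratios were compared with those reported. None of a gene past the rule changed sign, and 158 moved by more than the SD between libraries, 42 of them against sub-clusters 0, 1, 2 and 9. Against those 4 sub-clusters 157 genes were higher and 117 lower, of which 141 and 106 were shared with the 242 and 438 reported. Against all cells outside the cycling sub-clusters 6 and 8 the lower genes numbered 195. With a filter of 1 CPM they numbered 723, and with a 1.5-fold rule 608 genes were higher and 836 lower. Leaving out 1 replicate at a time gave 294 to 322 higher and 472 to 534 lower genes. The rule then covered 2 libraries and was looser, so these counts are not on a par with the 242 and 438. The share of members was between 3.15 and 3.73%, and the mitochondrial difference 1.32 to 1.42 percentage points. The difference in median UMIs per cell was -1345 (without replicate 3) to -75.3 (without replicate 2) around -651, so it is not settled by 3 libraries. TMM factors gave 221 and 460, cells thinned to 2000 UMIs 190 and 332, and the members of AST_P3_15 235 and 430. A pseudocount of 5 CPM gave 173 and 332 and lowered the ratios of genes at low levels, to 2.54 for *Pcp4*, 2.37 for *Hsd11b1*, 2.18 for *Serpina3n* and -1.36 for *Atf3*. Thinning gave -3.23 ± 2.77 for *Dusp1*, beside -1.75 ± 0.08 as reported, and -4.18 ± 2.61 for *Nes*, beside -3.55 ± 0.25. These 2 thinned values are imprecise, as their SDs over 3 libraries show. The higher genes made up 35.6% of those past the rule as reported and 57.3% against sub-clusters 0, 1, 2 and 9. The mitochondrial share of the members exceeded that of the others by 1.36 percentage points, and that of sub-clusters 0, 1, 2 and 9 by 1.08. The 3m counts were also 64 and 20 against sub-cluster 7 alone, which differs by 2 cells and was added once the data had been seen. No paired analysis was possible because no test was run. Every ratio was already taken between cells of the same library. With 66 to 128 members per library, genes under about 10 CPM rested on a few UMIs.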
